A study of Mus musculus with 2 samples.

Results

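The 6 genes described here, Ccl2, Ccl7, Ccl8, Ccl11, Ccl12 and Ccl24, encode the monocyte chemokines and eotaxins of the mouse. They were taken by symbol from the 32285 genes counted in the series, and all 6 were found. The cells were lung cells sorted as CD45.2-negative, a gate meant to leave structural cells and remove most leukocytes, although the labels also call the material a total lung cell lysate. The WT library came from C57B6/J mice, and the other library from Plaur–/– mice listed under the same strain. Plaur encodes uPAR, the urokinase receptor, and the question of the series is whether it restrains the entry of eosinophils into allergen-exposed lungs. All mice of both genotypes, 8 each, had been sensitised with LPS and ovalbumin on days 0 and 7 and exposed to ovalbumin aerosol on day 14. Mice without allergen were not analysed here. Neither the number of mice pooled into a library nor the deleted part of Plaur is given in the labels.

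Chemokines of this family are small secreted proteins that bind G protein-coupled receptors on leukocytes and draw them along a concentration gradient. CCL2, CCL7 and, in the mouse, CCL12 act on CCR2 of inflammatory monocytes. CCL11 and CCL24 (eotaxin-1 and eotaxin-2) act on CCR3 of eosinophils, CCL7 can bind CCR3 as well, and mouse CCL8 acts on CCR8 of T helper type 2 cells. In allergic lungs, fibroblasts, epithelium and macrophages are known producers, and the genes respond to interleukin-1, tumour necrosis factor, interleukin-4 and interleukin-13.

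There was 1 library per genotype. No difference below has a replicate check, and no test or p-value was computed, so genotype, preparation and library cannot be told apart. The WT library held 11776 barcodes and 57028943 unique molecular identifiers (UMIs, 1 per captured mRNA molecule), the KO-labelled library 9771 barcodes and 51529241 UMIs, against the 10000 emulsions stated in the labels. Filtering and doublet removal left 10225 WT cells (median 4837 UMIs) and 8934 KO-labelled cells (median 5538 UMIs). Only 27 of the kept cells in each library carried a barcode found in both. Levels are UMI counts scaled to the total of the class or library, as UMIs per 1000000 UMIs (CPM), with exact Poisson 95% intervals (where no UMI was counted, with a limit of 3 UMIs), and ratios are log2 of KO-labelled over WT with exact binomial 95% intervals. All intervals cover counting error only. Plaur mRNA itself was counted in both libraries, with 2374 UMIs (47.0 CPM) in the WT and 1634 UMIs (33.1 CPM) in the KO-labelled one. By class it was lower in some, such as mesothelial-like cells (157 and 93.3 CPM), and higher in others, such as AT2-like (2.46 and 17.5 CPM), ciliated-like (12.3 and 46.2 CPM) and general capillary-like cells (112.5 and 160.2 CPM). The transcript level therefore does not show the knockout, and that library is named here by its label, as KO-labelled.

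Of the 6 genes, 5 lie in a row on the plus strand of chromosome 11 (GRCm38), within 81.23 kb. Ccl2 (ENSMUSG00000035385) stands first at chr11:82035571-82037453, followed by Ccl7 (ENSMUSG00000035373) at chr11:82045712-82047525 and Ccl11 (ENSMUSG00000020676) at chr11:82057823-82062955. A gap of 38889 bases separates Ccl11 from Ccl12 (ENSMUSG00000035352) at chr11:82101845-82103400, and Ccl8 (ENSMUSG00000009185) ends the row at chr11:82115185-82116799. Ccl24 (ENSMUSG00000004814) lies apart on the minus strand at chr5:135569937-135573049. Each gene has 3 exons in its principal transcript. The paired cysteines next to each other that give the CC family its name are encoded by TGC TGC, or TGC TGT in Ccl12. The following 48 bases of each coding sequence show this codon pair in capitals, read 5′ to 3′ from the GENCODE M21 transcripts, because they are the shared signature of the 6 members and show how far the sequences around it differ.
Ccl2: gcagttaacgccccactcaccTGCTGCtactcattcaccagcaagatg
Ccl7: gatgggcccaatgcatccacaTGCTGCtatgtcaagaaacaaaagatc
Ccl8: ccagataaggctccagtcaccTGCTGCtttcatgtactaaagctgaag
Ccl11: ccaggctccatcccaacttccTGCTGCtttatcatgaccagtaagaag
Ccl12: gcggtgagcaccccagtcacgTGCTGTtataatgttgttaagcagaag
Ccl24: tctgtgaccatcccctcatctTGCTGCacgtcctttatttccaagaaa

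The coding sequences were 46.7% to 66.3% identical between pairs. Ccl7 and Ccl11 formed the closest pair. Ccl2 stood at 46.7% to 51.8% from the other members, and Ccl24 at 47.8% to 51.8%. The coding sequence used for Ccl2 has 444 bases, and those of the others have 291 to 357. The longest run of bases shared exactly by any pair of the transcripts was 23, between Ccl2 and Ccl7. In the last 500 bases of the transcripts, the end that a 3′ library reads, the longest shared run was 15 bases, between Ccl2 and Ccl12.

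Fibroblast-like cells held most of the Ccl2, Ccl7, Ccl8 and Ccl11 message, and mesothelial-like cells a share of Ccl2 and Ccl7. In the WT library, fibroblast-like cells were 11.7% of the kept cells and held 65.9% of Ccl2, 70.5% of Ccl7, 83.3% of Ccl8 and 88.7% of Ccl11 UMIs. In the KO-labelled library they were 4.84% of the cells and held 66.4%, 64.9%, 61.5% and 83.7% of the same genes. Mesothelial-like cells, the lining of the lung surface, were 7.85% of the WT and 2.71% of the KO-labelled cells. They held 22.3% and 20.7% of Ccl2 and 15.7% and 21.1% of Ccl7, but 0.307% and 0.370% of Ccl11. Clusters that met no class name held a further 8.77% and 11.4% of Ccl2 UMIs, and for Ccl8 13.5% and 35.5%.

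**Figure D1:**
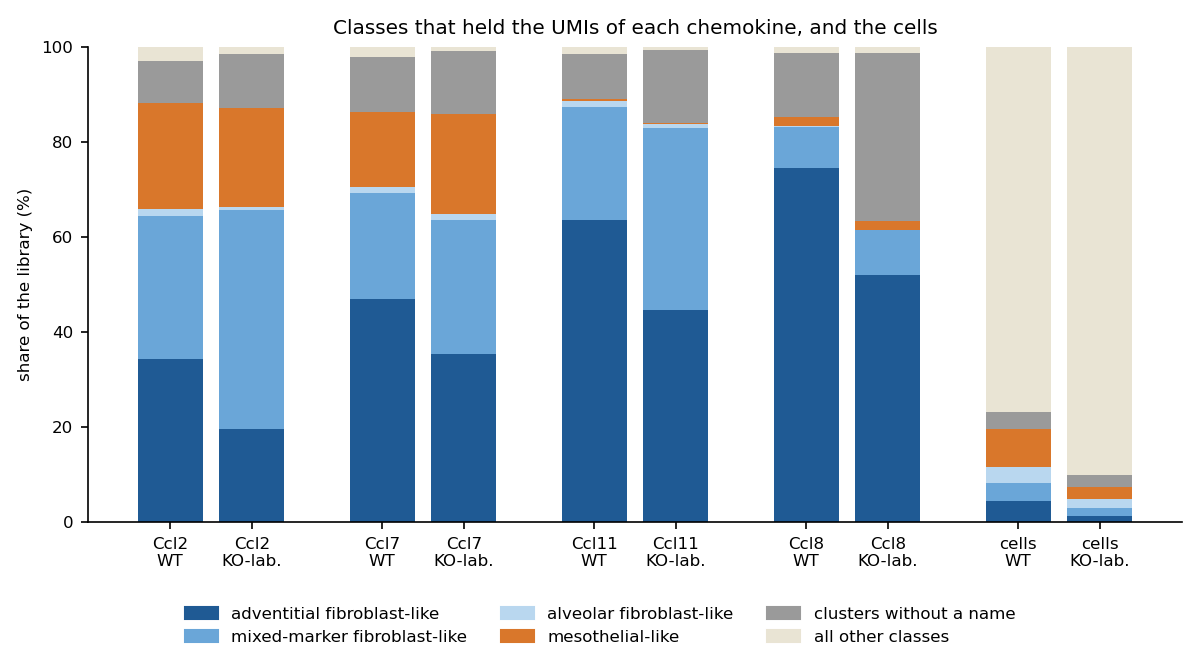
Share of each library's Ccl2, Ccl7, Ccl11 and Ccl8 UMIs (y axis, percent) that lay in each cell class, with the share of kept cells in the right pair of bars. Fibroblast-like cells, 11.7% of WT cells and 4.84% of KO-labelled cells, held 61.5% to 88.7% of the UMIs, and mesothelial-like cells contributed to Ccl2 and Ccl7 but hardly to Ccl11.

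The fibroblast-like cells fell into 3 groups. The adventitial group, cells around airways and vessels marked by Pi16, Clec3b and Dcn, had 459 WT and 121 KO-labelled cells. The alveolar group, marked by Npnt, Inmt and Itga8, had 345 and 167 cells. A mixed-marker group of 393 and 144 cells did not meet the rule for either name, and its main clusters, 14 and 17, had Saa3 and Timp1 among their leading genes. The 12 adventitial markers summed to 26750 and 26692 CPM in the adventitial group and to 7585 and 8818 CPM in the alveolar group, and the 13 alveolar markers to 938 and 983 CPM and to 9273 and 9735 CPM. In the mixed-marker group these lists summed to 7667 and 6472 CPM and to 3812 and 3982 CPM. These are the markers the naming used. Over both libraries, cluster 17 had 1454 CPM of Npnt, 992 CPM of Inmt and 30.1 CPM of Pi16. In the alveolar cluster 15 the values were 919, 2409 and 70.2 CPM. The alveolar name therefore does not cover all cells with alveolar markers. The 13 macrophage or monocyte markers summed to 9.06 and 15.95 CPM in the adventitial, 5.20 and 2.30 CPM in the alveolar and 33.8 and 6.20 CPM in the mixed-marker group, with 6, 10 and 3 of them at 0 in both libraries together. In mesothelial-like cells they summed to 176 and 169 CPM. The part of macrophage RNA in the chemokine counts was not tested.

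Ccl2, the main attractant of CCR2-positive monocytes, was highest in the mixed-marker group. Its level there was 3486 CPM (3393 to 3580) in the WT and 5199 CPM (4998 to 5406) in the KO-labelled library. Adventitial fibroblast-like cells followed with 3258 CPM (3176 to 3340) and 2123 CPM (1998 to 2255). Mesothelial-like cells came next with 1087 CPM (1053 to 1121) and 892 CPM (841 to 946), where the intervals overlapped those of smooth muscle-like cells in both libraries. Alveolar fibroblast-like cells were far lower, at 273 CPM (241 to 308) and 80.5 CPM (56.1 to 112). Every other class with at least 20 cells in each library stood at or below 10.9 CPM in the WT and 1.59 CPM in the KO-labelled library, so the order among them is that of a few UMIs.

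Ccl7, which binds CCR2 and also CCR1 and CCR3, followed the same classes with a different leader. Adventitial fibroblast-like cells were highest, with 3062 CPM (2983 to 3142) in the WT and 2297 CPM (2166 to 2433) in the KO-labelled library. The mixed-marker group had 1772 CPM (1706 to 1840) and 1889 CPM (1768 to 2015). Mesothelial-like cells had 525 CPM (502 to 549) and 541 CPM (501 to 583). Alveolar fibroblast-like cells had 164 CPM (140 to 192) and 94.3 CPM (67.7 to 128). In smooth muscle-like cells Ccl7 was 345 and 17.1 CPM, from 64 and 1 UMIs.

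Ccl11, the gene of eotaxin-1, was a fibroblast gene in both libraries and close to absent from mesothelial-like cells. Adventitial fibroblast-like cells held 2877 CPM (2801 to 2955) in the WT and 3122 CPM (2969 to 3281) in the KO-labelled library. The mixed-marker group held 1312 CPM (1256 to 1371) and 2792 CPM (2645 to 2945), so the distance between these groups was smaller in the KO-labelled library. Alveolar fibroblast-like cells had 111 CPM (91.1 to 134) and 55.2 CPM (35.4 to 82.1). Mesothelial-like cells had 7.102 CPM (4.64 to 10.4) and 10.3 CPM (5.47 to 17.6), from 26 and 13 UMIs.

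Ccl8, a CCR8 ligand in the mouse, was narrower still. Adventitial fibroblast-like cells had 197 CPM (178 to 218) in the WT and 175 CPM (141 to 216) in the KO-labelled library, intervals that overlap. The mixed-marker group had 28.0 CPM (20.2 to 37.7) and 33.1 CPM (18.9 to 53.7), from 43 and 16 UMIs. In alveolar fibroblast-like cells 1 UMI was counted among WT cells and 0 among KO-labelled cells, which allows up to 6.90 CPM (3 UMIs).

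**Figure D2:**
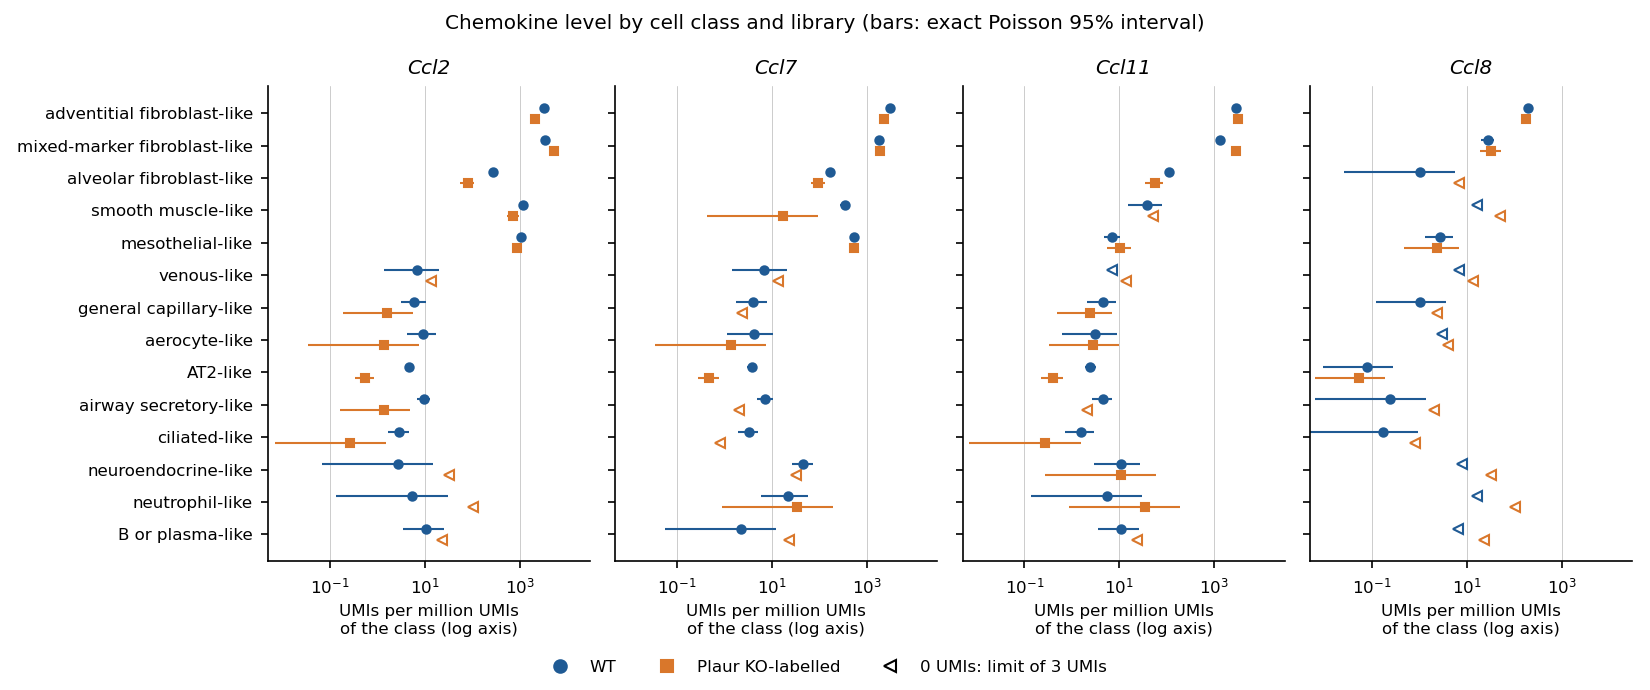
Level of Ccl2, Ccl7, Ccl11 and Ccl8 (x axis, CPM, log scale) in each class with at least 20 cells in both libraries, WT as circles and KO-labelled as squares, bars being exact Poisson 95% intervals and open triangles the limit of 3 UMIs where no UMI was counted. Adventitial or mixed-marker fibroblast-like cells lead for all 4 genes, and alveolar fibroblast-like cells lie below mesothelial-like cells for Ccl2 and Ccl7. Mesothelial-like cells reach 1087 CPM for Ccl2 but 7.102 CPM for Ccl11 in the WT library.

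Ccl12 and Ccl24 were nearly silent in these cells. Ccl12 had 7 UMIs in 7 kept WT cells, 4 of them in mixed-marker fibroblast-like cells, and 0 UMIs in the KO-labelled library, which in its fibroblast-like cells allows up to 2.11 CPM. Ccl24 had 3 WT and 31 KO-labelled UMIs. All 31 came from 2 cells: 18 UMIs in a cell of cluster 39, which is led by Chil3, Ctss and Ccl6 and expresses the leukocyte gene Ptprc, and 13 UMIs in a cell of cluster 38, where Dcn and Rarres2 lead. No Ccl24 UMI was counted in epithelial-like, endothelial-like or mesothelial-like cells of either library. Both genes are known from macrophages, most of which the sort is meant to remove.

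Ccl8 and Ccl12 are neighbours 11784 bases apart, one of them a fibroblast gene here and the other nearly silent. Of the 6 members these 2 had a promoter in the sequence table used, so their promoters are set side by side. The 250 bases before each start are shown 5′ to 3′ from RefSeq on GRCm38.p6, plus strand, at chr11:82114935-82115184 for Ccl8 and chr11:82101595-82101844 for Ccl12, with a TATA box match in capitals.
Ccl8: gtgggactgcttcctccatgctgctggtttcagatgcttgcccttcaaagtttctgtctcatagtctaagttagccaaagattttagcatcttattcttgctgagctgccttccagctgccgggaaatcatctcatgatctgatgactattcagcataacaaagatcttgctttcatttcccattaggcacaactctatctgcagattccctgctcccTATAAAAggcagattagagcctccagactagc
Ccl12: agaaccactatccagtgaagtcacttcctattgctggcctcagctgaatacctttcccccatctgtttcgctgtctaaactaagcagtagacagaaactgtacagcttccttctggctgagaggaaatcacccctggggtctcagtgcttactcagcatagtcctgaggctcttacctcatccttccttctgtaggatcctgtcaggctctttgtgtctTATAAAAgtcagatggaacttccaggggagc

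The sequences were 54.5% identical when aligned. The TATAAAA match began 32 bases before the start of Ccl8 and 31 bases before that of Ccl12, and 4.94% of 32536 mouse promoters of this length hold one on either strand. None of the other motifs searched on both strands was found in these windows. These were the kappa B consensus (in 7.28% of promoters), the STAT motif TTCNNNGAA (7.04%) and its form with 1 more base in the gap (5.89%), TGANTCA (6.73%) for AP-1 and TTNNGNAA (36.8%) for C/EBP. The absence says only that these letters are not in these 250 bases.

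The classes differed in the make-up of their chemokine message. Because capture can differ between genes, the number of Ccl11 UMIs per 100 Ccl2 UMIs is compared here only between groups of cells. It was 88.3 (85.1 to 91.6) in WT adventitial fibroblast-like cells, 37.6 (35.7 to 39.6) in the WT mixed-marker group and 0.653 (0.426 to 0.959) in WT mesothelial-like cells. In the KO-labelled library the values were 147.0 (135.9 to 159.1), 53.7 (50.2 to 57.4) and 1.15 (0.611 to 1.98). Eotaxin-1 message stood higher relative to Ccl2 in the adventitial and mixed-marker groups of the KO-labelled library, where the counting intervals do not overlap. Over all fibroblast-like cells the ratio was 64.1 (62.3 to 66.0) in the WT and 81.3 (77.4 to 85.4) in the KO-labelled library. By cluster it was 89.6 and 153.5 in cluster 13, 60.2 and 66.4 in cluster 14, where the intervals overlap, and 132.6 and 53.3 in the unnamed cluster 24, which held only 6 KO-labelled cells and went the other way. This measure does not depend on how the libraries were scaled.

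Within the adventitial class, 1 cluster carried most of the signal. Cluster 13, led by collagen genes with Tnfaip6 and Ptx3, held 304 of 459 WT and 79 of 121 KO-labelled cells. Its Ccl2 level was 4758 CPM in the WT and 3003 CPM in the KO-labelled library. Its Ccl11 level was 4264 and 4611 CPM, and its Ccl8 level 297 and 272 CPM. Cluster 18, led by Dcn and Pi16, was much lower, with 367 and 225 CPM of Ccl2 and 239 and 268 CPM of Ccl11. Clusters 13 and 18 were 66.2% and 24.2% of the class in the WT and 65.3% and 19.8% in the KO-labelled library. In cluster 22, with 44 and 18 cells and Mmp3 among its leading genes, Ccl7 was 525 and 1414 CPM and Ccl11 581 and 1114 CPM.

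Cluster 17 of the mixed-marker group had the highest Ccl2 level of any named cluster that held 20 cells in each library. In this cluster, led by Saa3, Timp1, Cxcl9 and Cxcl10, Ccl2 was 9870 CPM (9485 to 10266) in 97 WT cells and 9786 CPM (9287 to 10306) in 51 KO-labelled cells. These intervals overlap, and so do those of Ccl7 there, at 3255 and 3144 CPM. Ccl11 in the same cells was 1982 CPM (1812 to 2164) in the WT and 4369 CPM (4038 to 4721) in the KO-labelled library. The Ccl11 UMIs per 100 Ccl2 UMIs were accordingly 20.1 (18.2 to 22.1) and 44.6 (40.6 to 49.0). In cluster 14, led by Mgp, Saa3 and Timp1, Ccl2 was 2276 and 3299 CPM, Ccl7 1645 and 1351 CPM, and Ccl11 1370 and 2192 CPM. Cluster 44, with 21 WT cells and led by Lgals1 and Cxcl13, had no KO-labelled cell. Cluster 25, led by Hhip and Mgp, had 17 WT and 7 KO-labelled cells with 9 and 11 Ccl2 UMIs.

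Mesothelial-like cells split into a high and a low cluster. Cluster 12 had 2560 CPM (2477 to 2644) of Ccl2 in 270 WT cells and 1341 CPM (1262 to 1423) in 145 KO-labelled cells. Its Ccl7 level was 1276 CPM (1218 to 1336) and 845 CPM (782 to 911). Cluster 11 had 146 and 115 CPM of Ccl2 and 44.9 and 17.4 CPM of Ccl7. Both clusters expressed the mesothelial genes Msln (2791 CPM in cluster 12, 3164 CPM in cluster 11) and Wt1 (474 and 557 CPM). Saa3, an acute-phase gene, was 1287 CPM in cluster 12 and 126 CPM in cluster 11.

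**Figure D3:**
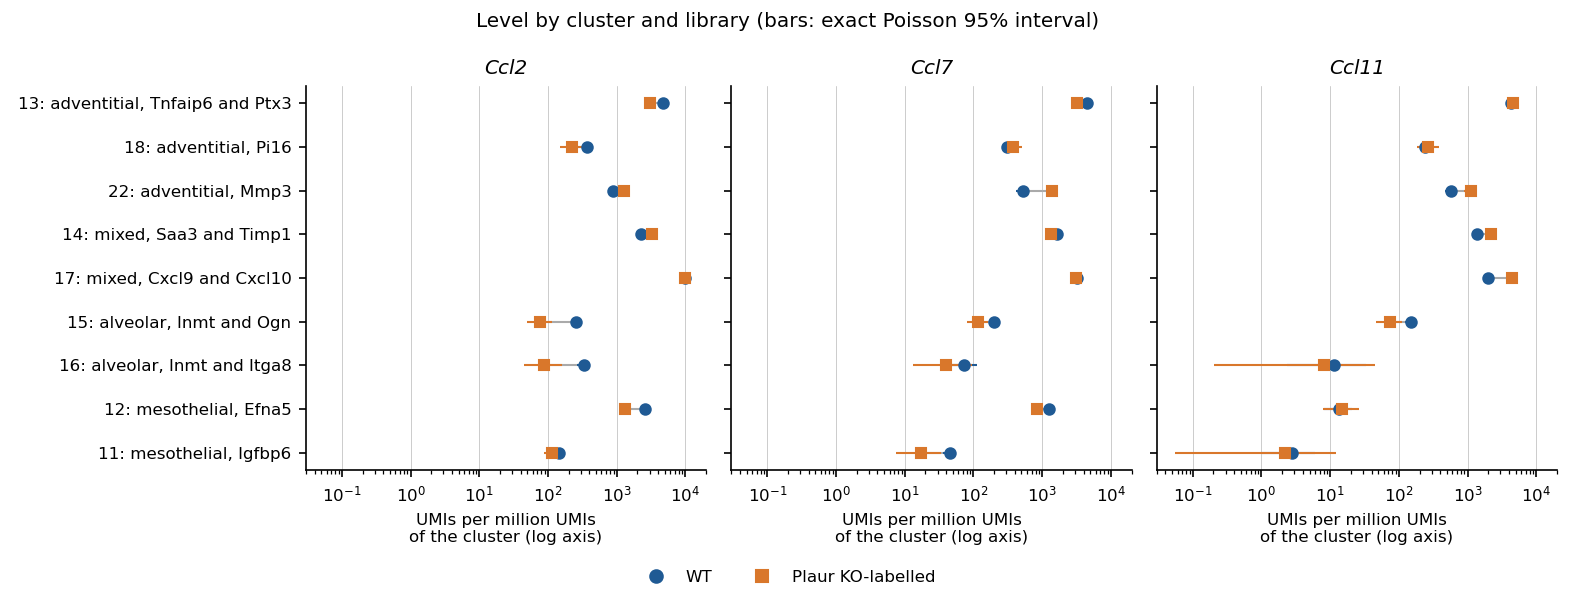
Level of Ccl2, Ccl7 and Ccl11 (x axis, CPM of the cluster, log scale) in the main fibroblast-like and mesothelial-like clusters, WT as circles and KO-labelled as squares, with exact Poisson 95% intervals. In cluster 17 the Ccl2 points coincide near 9870 CPM while Ccl11 is 1982 CPM in the WT and 4369 CPM in the KO-labelled library; in mesothelial cluster 12 the Ccl2 and Ccl7 points of the KO-labelled library lie to the left.

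The members were found together in the same cells. To compare cells of unequal depth, each cell was thinned at random to 1000 UMIs and shallower cells were left out, 14 WT and 2 KO-labelled cells of the adventitial class. Among WT adventitial fibroblast-like cells with a Ccl2 UMI, 72.9% (129 of 177 cells) also had a Ccl7 UMI, against 29.9% of those without. In the KO-labelled library the shares were 76.5% (26 of 34 cells) and 16.5%. Of the 65 WT cells with a Ccl8 UMI, 89.2% had Ccl7, against 39.7% of the rest. All of Ccl2, Ccl7 and Ccl11 were seen in 23.2% of WT and 17.7% of KO-labelled adventitial cells, and none of them in 32.8% and 42.9%. In mesothelial-like cells with a Ccl2 UMI, 46.3% of WT and 48.7% of KO-labelled cells had Ccl7, against 4.14% and 7.32% of those without.

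In the adventitial class a minority of cells carried most of the Ccl2 message. After the same thinning, a Ccl2 UMI was seen in 39.8% (35.2 to 44.5) of WT and 28.6% (20.7 to 37.6) of KO-labelled adventitial fibroblast-like cells, and in 47.9% and 33.9% without thinning. Ccl11 was seen in 50.8% (46.0 to 55.5) and 47.9% (38.7 to 57.3), and without thinning in 63.2% and 60.3%. In AT2-like cells, which have median depths of 6384 and 6176 UMIs against 4046 and 4001 in the adventitial class, the thinned Ccl2 shares were 0.314% and 0.0344%. The 10% of adventitial cells richest in Ccl2 held 64.6% of its UMIs in the WT and 75.8% in the KO-labelled library.

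Counts were low in epithelial-like cells and in endothelial-like cells other than the lymphatic-like ones, which are given below. AT2-like cells, the surfactant-making cells that form 37.3% of WT and 65.1% of KO-labelled cells, had 4.595 and 0.559 CPM of Ccl2, 3.72 and 0.479 CPM of Ccl7 and 2.46 and 0.399 CPM of Ccl11. General capillary-like cells had 6.08 and 1.59 CPM of Ccl2, and ciliated-like cells 2.90 and 0.275 CPM. All 3 members with at least 20 UMIs in AT2-like cells were past 1.5-fold lower in the KO-labelled library, where 8.68% of all genes were past it lower and 2.12% higher. In airway secretory-like cells, both members counted were past it lower, Ccl2 with 39 and 2 UMIs and Ccl7 with 29 and 0, where 27.2% of genes were lower and 2.66% higher. The Ccl11 UMIs per 100 Ccl2 UMIs in WT AT2-like cells were 53.4 (38.6 to 73.4), an interval that holds the 47.6 of all WT cells together. In the KO-labelled library the values were 71.4 (34.3 to 145.4) and 64.5. Genes of other cell types were also counted in fibroblast-like cells. Scgb1a1, an airway secretory gene, was 4564 CPM in WT and 203 CPM in KO-labelled adventitial fibroblast-like cells (medians over cells 818 and 0 CPM). The AT2 gene Sftpc was 530 and 802 CPM in the same cells. Over whole lists, 14 airway secretory markers summed to 4942 and 367 CPM there and 12 AT2 markers to 914 and 1236 CPM. Of the 8568 Scgb1a1 UMIs in WT adventitial fibroblast-like cells 2602 lay in 1 cell, which the pooled value and the list sum include. Whether these counts came from RNA free in the droplets was not tested. The part of such free RNA in the chemokine counts of the low classes was not tested either.

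Single cells set the value in some small classes. In smooth muscle-like cells 216 WT and 43 KO-labelled Ccl2 UMIs were counted, of which 172 and 41 lay in 1 cell each. Ccl7 had 64 and 1 UMIs there, and both genes were past 1.5-fold lower in the KO-labelled library, where 18.9% of genes were lower and 15.3% higher. The Ccl2 ratio there, -0.66, was -0.37 with thinned cells and -2.74 without the richest cell of each library, and that of Ccl7, -4.34, was -0.77 with the libraries clustered apart. In the WT library 9 of 36 lymphatic-like cells had Ccl2, at 890 CPM (739 to 1064), and the KO-labelled library had only 9 cells of this class. Neutrophil-like cells held 1 Ccl2 UMI in 145 WT and 0 in 22 KO-labelled cells.

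In the producer classes the libraries were compared by the same rule: a gene was called higher or lower in the KO-labelled library when its ratio passed 1.5-fold and it had at least 20 UMIs over both. In adventitial fibroblast-like cells, 1 of the 4 members counted was called lower, Ccl2 at -0.62 (-0.71 to -0.52), where 12.9% of all 8882 genes were called lower and 10.7% higher. Ccl7 was -0.41 (-0.51 to -0.32), Ccl8 -0.17 (-0.52 to 0.17) and Ccl11 0.12 (0.04 to 0.20). The median of the 4 was -0.29 and that of all genes 0.01. The Ccl2 call is close to the threshold: the ratio was -0.45 with a stricter cell filter or with thinned cells and -0.48 with the libraries clustered apart, all short of 1.5-fold.

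In the mixed-marker group, 1 of 4 members was called higher, Ccl11 at 1.09 (0.99 to 1.19), where 7.60% of genes were called higher and 18.2% lower. Ccl2 was 0.58 (0.51 to 0.65), just short of the threshold, Ccl7 0.09 (-0.02 to 0.20) and Ccl8 0.24 (-0.69 to 1.10). Over 15 alternative settings Ccl11 there lay between 0.20 and 1.44 and Ccl2 between -0.02 and 1.16, so neither side of the threshold is fixed. The Ccl2-rich cluster 17 was 24.7% (20.5 to 29.25) of the group in the WT and 35.4% (27.6 to 43.8) in the KO-labelled library, and within it the Ccl2 ratio was -0.01 (-0.11 to 0.08). With cluster shares held at those of the WT library Ccl2 was 0.42 and Ccl11 0.99 over the whole group. In alveolar fibroblast-like cells all 3 members with 20 UMIs were called lower, where 14.7% of genes were called lower and 9.05% higher. Ccl2 was -1.76 (-2.32 to -1.25), Ccl7 -0.80 (-1.33 to -0.30) and Ccl11 -1.01 (-1.71 to -0.36). The alveolar values rest on few cells: 38 of 345 WT and 5 of 167 KO-labelled cells had a Ccl2 UMI, and 16 of the 35 KO-labelled UMIs lay in 1 cell. For Ccl7, 31 of the 41 KO-labelled UMIs lay in 1 cell, and its ratio ran from -0.35 with a looser cell filter, short of 1.5-fold, to -2.89 with the libraries clustered apart. Without the cell richest in Ccl2 in each library the ratio was -2.41, and with doublets kept it was -0.85. With doublets kept the Ccl11 ratio turned to 0.80.

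The split among fibroblast-like groups moved with the clustering, so the pooled class is the steadier measure. Over all fibroblast-like cells no member of the 4 counted was called, where 6.56% of 11080 genes were called higher and 10.2% lower. Ccl2 was 2681 CPM (2633 to 2730) in the WT and 2546 CPM (2463 to 2630) in the KO-labelled library, a ratio of -0.07 (-0.13 to -0.02). Ccl7 was 1972 and 1483 CPM, a ratio of -0.41 (-0.48 to -0.34). Ccl11 was 1719 and 2071 CPM, a ratio of 0.27 (0.21 to 0.33). Ccl8 was 94.6 and 73.2 CPM, a ratio of -0.37 (-0.69 to -0.06). Over 16 alternative settings Ccl2 lay between -0.16 and -0.02, Ccl7 between -0.46 and -0.27 and Ccl11 between 0.11 and 0.41, while Ccl8 ran from -0.52 to 0.21.

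In mesothelial-like cells none of the 3 members counted was called, where 6.08% of 10330 genes were called higher and 14.4% lower. Ccl2 was -0.28 (-0.38 to -0.19), Ccl7 0.04 (-0.09 to 0.17) and Ccl11 0.53 (-0.55 to 1.55). Different clusters held most of the class in each library: cluster 11, the low one, was 61.5% (58.1 to 64.9) of WT cells, and cluster 12, the high one, was 59.9% (53.5 to 66.1) of KO-labelled cells. With the cluster shares held at those of the WT library, Ccl2 was -0.90 and Ccl7 -0.68. Within cluster 12 alone the ratios were -0.93 (-1.03 to -0.83) for Ccl2 and -0.60 (-0.72 to -0.47) for Ccl7. The near-equality of the whole class in Ccl7 therefore joins a lower level per cluster with a larger share of the high cluster.

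**Figure D4:**
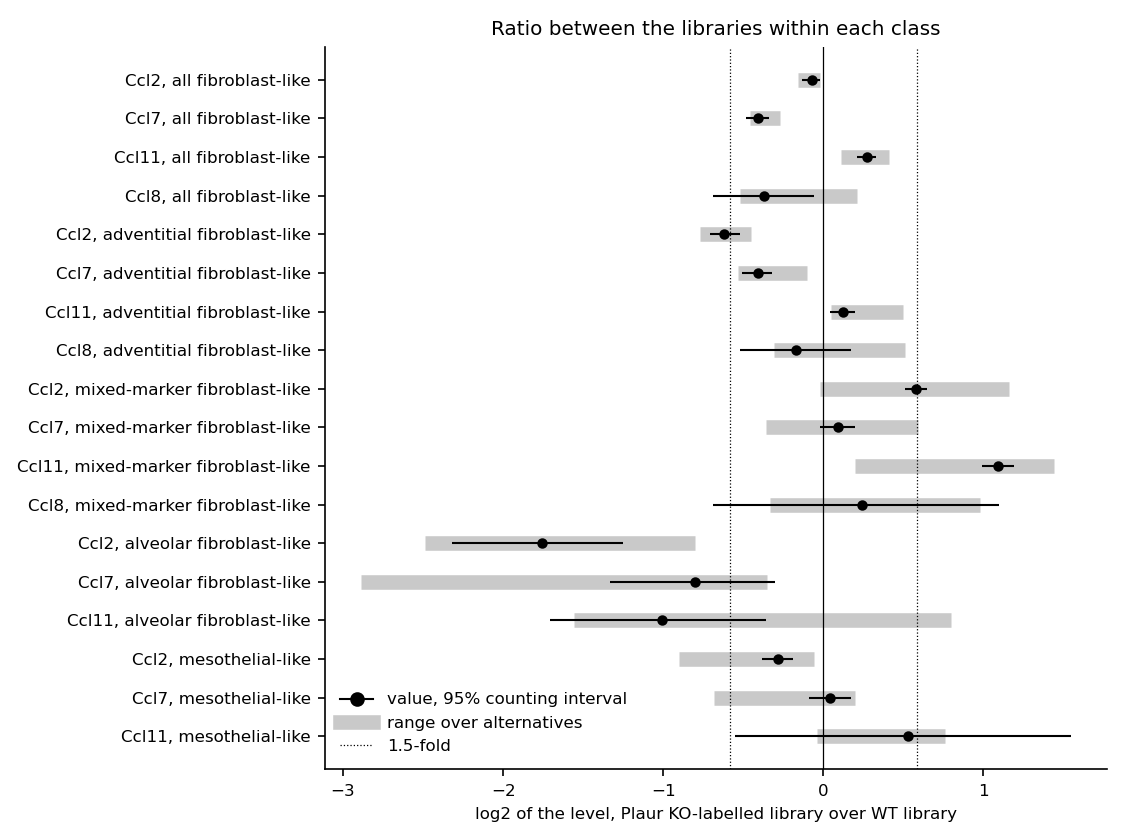
Log2 ratio of each member's level, KO-labelled over WT (x axis), by class, as points with exact binomial 95% counting intervals, grey bands for the range over the alternative settings and dotted lines at 1.5-fold. The bands of the pooled fibroblast-like class are narrow, at -0.16 to -0.02 for Ccl2 and 0.11 to 0.41 for Ccl11, and those of the alveolar class wide, with Ccl11 running from -1.56 to 0.80.

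The whole libraries differed more than their adventitial, mixed-marker or mesothelial-like cells did. Over all kept cells Ccl2 was 352 CPM in the WT and 110 CPM in the KO-labelled library, a ratio of -1.68 (-1.72 to -1.63). Ccl7 was 242 and 65.7 CPM (-1.88, -1.94 to -1.82), Ccl8 9.83 and 3.42 CPM (-1.52, -1.78 to -1.27) and Ccl11 168 and 71.1 CPM (-1.24, -1.30 to -1.18). Producer classes were a smaller share of the KO-labelled library, and the per-cell ratios were recomputed with each class weighted by its share of WT cells. The log2 ratio of UMIs per cell then went from -1.52 to -0.15 for Ccl2, from -1.72 to -0.28 for Ccl7, from -1.36 to 0.00 for Ccl8 and from -1.08 to 0.34 for Ccl11. With the class shares of the KO-labelled library the values were -0.16, -0.35, 0.09 and 0.33. For Ccl8, 56 of the 169 KO-labelled UMIs lay in the 6 cells of the unnamed cluster 24, most of them in 1 cell. Its values at fixed shares therefore rest in part on that cell. The shares of classes in a digested and sorted suspension also depend on the preparation, and 1 library per genotype cannot separate that from the lungs themselves.

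**Figure D5:**
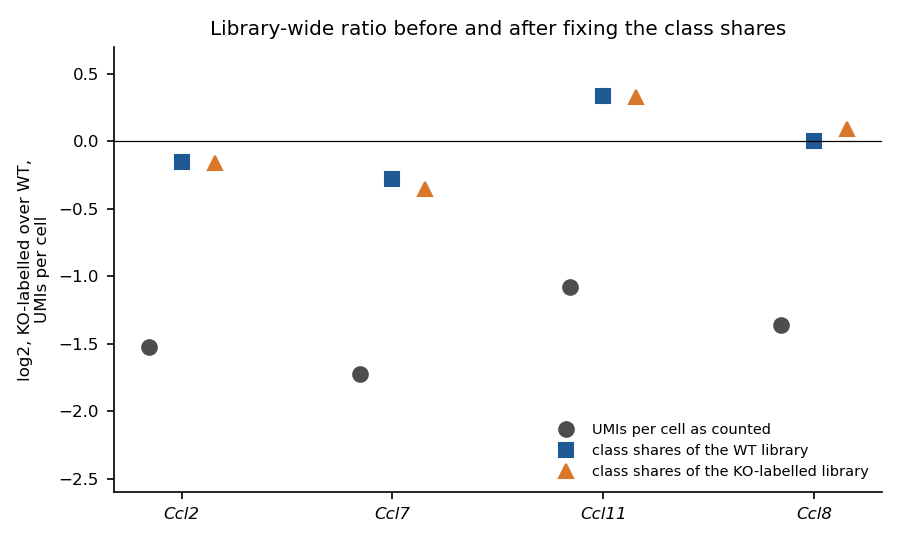
Log2 ratio of UMIs per cell over the whole library, KO-labelled over WT (y axis), for Ccl2, Ccl7, Ccl11 and Ccl8, as counted (circles) and with the class shares held at those of the WT (squares) or KO-labelled library (triangles). The counted values lie between -1.72 and -1.08, and the values at fixed shares between -0.35 and 0.34. Those of Ccl8 rest in part on 1 KO-labelled cell.

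Receptors for these ligands were scarce in the sorted cells, which were gated against the leukocytes known to carry them. Ccr3, the eotaxin receptor, had 2 UMIs in each library, and Ccr8 had 0. Ccr2 had 138 WT and 51 KO-labelled UMIs, 133 of them in cluster 39, the Chil3-led leukocyte cluster of 46 and 21 cells. Ccr1 was seen mainly in neutrophil-like cells, at 1886 and 1645 CPM. The 7 eosinophil markers summed to 166 and 48 UMIs over all kept cells.

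Receptors that bind chemokines without signalling to movement were found on vessels. Ackr2, which takes up and degrades CC chemokines, was 253 and 297 CPM in aerocyte-like cells (0.23, -0.04 to 0.50), the thin capillary cells of gas exchange. It was also 383 CPM in the 36 WT lymphatic-like cells. Ackr1, which carries chemokines across venules, was 316 and 91.2 CPM in venous-like cells, a ratio of -1.79 (-2.55 to -1.11), from 137 and 20 UMIs. It is also 1 of the markers used to name the venous class. Adventitial fibroblast-like cells had 58 and 12 Ackr1 UMIs. Ccrl2, which presents chemerin on endothelium, was 161 and 212 CPM in general capillary-like cells (0.40, 0.16 to 0.64). Ackr4, which scavenges CCL19 and CCL21, had 107 and 55 UMIs in all.

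Of 13 other CC chemokine genes, 5 reached 50 CPM in a class compared between libraries. Among those with at least 20 UMIs, 4 of 7 were called lower and 1 higher in the mixed-marker group (median -1.07). There 18.2% of all genes were called lower and 7.60% higher. Over all fibroblast-like cells 5 of 8 were lower and 0 higher (median -1.36, against 10.2% and 6.56%). In alveolar fibroblast-like cells 1 of 3 was lower and 0 higher (median 0.15, against 14.7% and 9.05%). Ccl19, a ligand of CCR7, was 666 and 620 CPM in adventitial and 855 and 961 CPM in mixed-marker fibroblast-like cells, with ratios of -0.10 (-0.29 to 0.08) and 0.17 (0.01 to 0.32). In alveolar fibroblast-like cells it was 111 and 55.2 CPM, and in smooth muscle-like cells 630 and 359 CPM. Ccl20, a ligand of CCR6, was found mainly in epithelial-like cells: 475 and 445 CPM in airway secretory-like cells and 109 and 35.8 CPM in AT2-like cells, a ratio of -1.61 (-1.71 to -1.52). In neutrophil-like cells Ccl3 was 467 and 137 CPM, Ccl4 1419 and 583 CPM and Ccl6 1974 and 2536 CPM, the KO-labelled values resting on 22 cells. B or plasma-like cells had 145 Ccl20 UMIs (316 CPM), all in 1 cell, and 80 Ccl4 UMIs in the WT, and 0 of either in the KO-labelled library.

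A list of receptors for the cytokines known to induce these chemokines also held Stat6, a transcription factor. In this list Il1r1 had a lower level in the KO-labelled library in each fibroblast-like group and in mesothelial-like cells. It was highest in the mixed-marker group, at 2053 and 1515 CPM, where its ratio of -0.44 (-0.56 to -0.32) was short of 1.5-fold and where 1 of 10 list genes was called higher and 1 lower (median 0.07; 7.60% and 18.2% of all genes). In adventitial fibroblast-like cells 1 of 10 counted genes was called higher and 1 lower (median 0.06), where 10.7% and 12.9% of all genes were. Il1r1, the interleukin-1 receptor, was 690 and 365 CPM (-0.92, -1.15 to -0.70) and Tnfrsf1b 27.2 and 45.9 CPM (0.76, -0.02 to 1.49), followed by Ifngr1 at 0.55 (0.23 to 0.86) and Osmr at -0.33 (-0.67 to -0.00). In alveolar fibroblast-like cells 3 of 10 were called lower and 0 higher (median -0.42, all genes -0.05), where 14.7% and 9.05% of all genes were. These were Il1r1 at 590 and 278 CPM (-1.08, -1.38 to -0.80), Il17ra at -0.74 (-1.91 to 0.29) and Osmr at -0.66 (-0.99 to -0.33), while Ifngr1 was 0.22 and Tnfrsf1a -0.04. In mesothelial-like cells none of 11 was called (median -0.13, all genes -0.07), where 6.08% of all genes were called higher and 14.4% lower, with Osmr at 0.31, Tnfrsf1a at 0.30, Il1r1 at -0.51 and Stat6 at -0.56.

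Genes of the NF-kB circuit, which induces these chemokines, and of mRNA decay, which shortens the life of their mRNAs, were called lower in several classes. In alveolar fibroblast-like cells 8 of 11 were called lower and 0 higher (median -0.72), where 14.7% of all genes were called lower and 9.05% higher. In the mixed-marker group 3 of 11 were called lower and 0 higher (median -0.31), where 18.2% of genes were called lower. Outside these groups, 5 of 7 counted were called lower in smooth muscle-like cells (median -0.89, 18.9% of all genes) and 6 of 11 in airway secretory-like cells (median -0.61, 27.2% of all genes). In AT2-like cells 0 of 11 were called lower or higher (median -0.08), where 8.68% of all genes were called lower and 2.12% higher. Ciliated-like cells also had 0 of 11 called (median -0.13, all genes -0.06). General capillary-like cells had 1 of 11 higher and 0 lower (median -0.24, all genes -0.02). Venous-like cells had 4 of 10 lower and 0 higher (median -0.42, all genes -0.02). For ciliated-like, general capillary-like and venous-like cells the share of all genes called at the minimum of 20 UMIs was not computed. The counts of called genes in these classes therefore have no background share to be read against. In alveolar fibroblast-like cells Zc3h12a, an endonuclease for inflammatory mRNAs, was 42.6 and 4.599 CPM from 41 and 2 UMIs (-3.21, -6.30 to -1.27). Relb was 93.5 and 36.8 CPM (-1.35, -2.21 to -0.57) in the same cells. The highest there were Nfkb1 at -0.17 and Rela at -0.23. In adventitial fibroblast-like cells, where 12.9% of genes were called lower, 2 of 11 were called lower and 0 higher (median -0.43): Nfkbiz, a co-activator, at 260 and 144 CPM (-0.86, -1.23 to -0.50) and Zfp36, which speeds decay of AU-rich mRNAs, at 657 and 397 CPM (-0.73, -0.95 to -0.51). Rela at 0.05 and Nfkb1 at -0.01 were the highest. In mesothelial-like cells 1 of 11 was called lower, Zfp36l1 at -0.66 (-0.83 to -0.49), and 0 higher (median -0.04), with Nfkbiz at -0.46, Nfkbia at 0.32 and Rela at 0.22.

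Genes of a preset list of proteases, some of them known to cut these chemokines, were counted in very unequal numbers. Dpp4 had 1508 and 350 UMIs in mesothelial-like cells and 2928 and 3778 UMIs in AT2-like cells. Over all fibroblast-like cells Mmp2 had 1731 and 751 UMIs and Plau 35 and 2. In adventitial fibroblast-like cells 2 of 4 counted were called lower and 0 higher, where 12.9% of all genes were called lower and 10.7% higher. Dpp4, which trims the start of CCL11, was 68.2 and 29.9 CPM (-1.19, -2.07 to -0.41), and Plau, the gene of urokinase, had 23 and 2 UMIs (-1.62, -4.75 to 0.40). Mmp2, which trims CCL7, was 284 and 389 CPM (0.45, 0.21 to 0.69), and Mmp14 was 0.02. In alveolar fibroblast-like cells neither of the 2 counted was called, with Mmp2 at 0.54 and Mmp14 at 0.22. In mesothelial-like cells neither of 2 was called, Dpp4 lying just inside the threshold at 412 and 277 CPM (-0.57, -0.75 to -0.41) and Mmp14 at 0.06.

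The genes with the most similar pattern over classes were found by Pearson correlation of log2(CPM + 10) over 22 points among 8192 genes, a point being a class in 1 library, for the 11 classes that had 50 cells or more in both. The points of 1 library share its depth and any free RNA, and the values are descriptions. Nearest to Ccl2 were Ccl7 (r = 0.994), the metallothionein gene Mt2 (0.982) and the interferon-induced gene Ifi211 (0.982). Nearest to Ccl7 besides Ccl2 were Timp1 (0.982), an inhibitor of metalloproteinases, and Mt2 (0.982). Ccl8 lay nearest to Ptx3 (0.988), a secreted pattern-recognition protein, Fst (0.982), the activin-binding follistatin, and Tgfbi (0.981), a matrix protein. Ccl11 lay nearest to Ifi205 (0.992), Ccl19 (0.986) and Prrx2 (0.977), a mesenchymal homeobox gene. Ccl12 and Ccl24 did not reach 50 CPM at any point.

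Of the clusters without a class name, cluster 38 (113 WT and 18 KO-labelled cells), which carried mesothelial along with fibroblast genes, had 467 and 103 CPM of Ccl2. Clusters 19 and 24 carried fibroblast genes such as Dcn, Col1a2 and Timp1. In cluster 19 (58 WT and 36 KO-labelled cells) Ccl7 was 1649 and 451 CPM and Ccl11 672 and 1362 CPM. Its cells had median depths of 9548 and 9453 UMIs, above those of all other fibroblast-like groups given here. Cluster 24 had 35 WT but only 6 KO-labelled cells, in which Ccl8 was 78.0 and 1781 CPM, 48 of the 56 KO-labelled UMIs being in 1 cell. The pooled fibroblast-like ratios given above, with their ranges, include a setting that adds both clusters.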

How the data were processed

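Droplet 3′ single-cell RNA sequencing measured 2 libraries of sorted mouse lung cells. The authors deposited raw UMI counts per gene and barcode, written by Cell Ranger 7.0.0 per the file headers (7.0.0 and 7.1.0, build mm10, per the submitters' processing notes). The choice of barcodes and the counting of introns are not given in the sources used here.

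Barcodes under 500 detected genes or over 15% mitochondrial UMIs were left out, and doublets were removed per library with Scrublet in scanpy 1.11.5 (617 WT, 175 KO-labelled). Joint clustering used 2000 variable genes, 30 principal components, 15 neighbours and Leiden resolution 1 (leidenalg 0.10.2), without the 6 members and Plaur, followed by a second round within compartments. Of 47 clusters 40 took a name from at least 3 preset markers among 50 leading genes. The second round and the rule for fibroblast groups were chosen after the clusters were seen, and the members and gene lists with earlier results of these data known. Named genes are the members, preset lists (in 3 lists the 2 highest and 2 lowest of each class) and the 3 nearest patterns. Genes and clusters outside this rule, such as Saa3 and cluster markers, were chosen after their values were seen.

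UMIs were summed per class and library and scaled to the class total. Where 1 library had 0 UMIs no ratio is printed. edgeR 4.0.16 gave TMM factors for an alternative scaling only. The ratio procedure was tested on simulated data.

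The result for 1 receptor gene is not reported here.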

Additional observations from a re-analysis of the deposited data

Results flagged for a closer look

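The direction between the libraries differed among fibroblast-like groups. Ccl2 was -1.76 on the log2 scale in alveolar fibroblast-like cells and 0.58 in the mixed-marker group, and Ccl11 was -1.01 and 1.09 in the same groups. With 1 library per genotype the difference was not tested. The Ccl2-rich cluster 17 was 24.7% of the mixed-marker group in the WT and 35.4% in the KO-labelled library, and its own Ccl2 ratio was -0.01.

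Some counts lay outside the comparisons. A single WT barcode that had been marked as a doublet and removed held 7 Ccl12 UMIs, as many as all kept WT cells together, with 6 UMIs of C1qa and 8 of Mrc1, macrophage genes. In the KO-labelled library a single cell of cluster 39 held 18 Ccl24 UMIs beside 26 of Chil3, and a single cell of cluster 38 held 13 Ccl24 UMIs with 0 of Chil3 and of Ptprc.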

How the results depend on the processing

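Member ratios (24, log2 of KO-labelled over WT) were recomputed under up to 16 alternatives each. Over all of them 1 turned its direction after being called: Ccl11 in alveolar fibroblast-like cells, -1.01 as reported, was 0.80 with doublets kept. Adventitial Ccl2 (-0.62) was -0.45 with a stricter cell filter and with thinned cells, -0.73 at Leiden resolution 2, -0.48 with libraries clustered apart and -0.77 without the richest cell of each library. Adventitial Ccl7 (-0.41) was -0.28 with a looser filter, -0.17 with a stricter one, -0.53 at resolution 2, -0.10 clustered apart, -0.32 with members shaping the clusters and -0.51 without the richest cell. Adventitial Ccl11 (0.12) was 0.21 with a looser filter, clustered apart or with members shaping the clusters, and 0.50 with a stricter filter. Alveolar Ccl2 (-1.76) was -0.80 with a looser filter, -1.02 with a stricter filter or with members shaping the clusters, -0.85 with doublets kept, -2.49 clustered apart, -1.21 as a mean over cells and -2.41 without the richest cell. Mesothelial Ccl2 (-0.28) was -0.17 with a looser filter, -0.16 with doublets kept or clustered apart, -0.06 thinned, -0.11 as a mean over cells and -0.90 at WT cluster shares. Mesothelial Ccl7 (0.04) was 0.20 with a looser filter, with doublets kept or clustered apart, 0.17 thinned and -0.68 at WT cluster shares. Ccl7 per cell at fixed class shares was -0.28 with WT and -0.35 with KO-labelled shares. The cause of these moves was not tested. The settings that leave out the richest cell or shared barcodes, hold cluster shares, or add clusters 19 and 24 were added after the data were seen.

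No adventitial cluster was named with doublets kept, so the adventitial members have no value there, and thinning left too few UMIs for secretory Ccl2 and mesothelial Ccl11. No paired analysis was possible because each genotype has 1 library. With 100 UMIs as the minimum, 3.81% of genes in adventitial cells were past 1.5-fold higher and 6.75% lower; with 1 UMI, 34.5% and 11.1%. Few UMIs were counted for Ccl12 and Ccl24, and for Ccl8 outside adventitial cells and unnamed clusters. Alveolar values rest on few cells, and intervals hold no animal-to-animal spread.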
